A study of Mus musculus with 6 samples.

Results

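The genes described are the mouse p53 gene Trp53, its regulator Mdm2, and direct p53 targets that act in growth arrest (Cdkn1a, Ccng1), nutrient and stress sensing (Sesn1, Sesn2) and cell death or survival signalling (Bax, Bbc3, Trp53inp1, Phlda3). They were listed by name, and all 10 had a row among the 24569 named genes of the expression table. They were followed in dorsal pancreatic buds of E11.5 mouse embryos after 24 h of culture, with 10 buds pooled per sample. The control group (CTRL) received the solvent DMSO at 0.1%, and the others received the BET bromodomain inhibitors I-BET151 at 500 nM or JQ1 at 100 nM. Each group had 2 samples, each hybridised to its own Affymetrix array. The labels give no strain or genotype and do not say whether pools came from separate litters or cultures, so the p-values measure only how far these pools differ, and part of that may be technical.

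p53 is a transcription factor that is made continuously and destroyed continuously. Mdm2 attaches ubiquitin to it, and stress that blocks Mdm2 lets p53 accumulate, bind its response elements and switch on genes for arrest, repair and death. Mdm2 and Ccng1 are themselves p53 targets that limit p53, which closes a feedback loop. Because p53 is controlled mainly at the protein level, its transcript says little about its activity, and the transcripts of its targets are the usual readout. In the mouse embryo the loss of Mdm2 is lethal unless p53 is removed as well. BET proteins read acetylated histones and help RNA polymerase leave the promoter, and the inhibitors release them from chromatin.

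p53 binds a pair of 10-base elements, and promoter sequences were searched for that 10-base consensus on both strands; the consensus is its own reverse complement, so each match counts once. RefSeq promoter windows of GRCm38.p6, each running from 250 bases before to 50 bases after a transcription start, were found for 9 of the 10 genes, in 13 windows. The consensus was matched exactly in 6 of the 13 windows, against 8.36% of all 32851 windows of this length, and the 6 windows belonged to Trp53, Mdm2, Cdkn1a, Ccng1, Sesn1 and Bax. A 20-base element was then searched, made of 2 abutting 10-base elements with the core C and G of each kept and at most 1 other mismatch. It occurred in 22 of the 32851 windows (0.067%), and among the 10 genes in those of Cdkn1a and Ccng1. These are the genes that fell under both inhibitors in the measurements below, and their windows are printed in full together with those of Mdm2, whose level hardly moved, and Sesn2, which rose under JQ1. A match describes the letters only, since binding was not measured, and a link between the element and the falls was not tested. Capitals mark the exact 10-base matches and, in Cdkn1a and Ccng1, the whole 20-base element.
Cdkn1a: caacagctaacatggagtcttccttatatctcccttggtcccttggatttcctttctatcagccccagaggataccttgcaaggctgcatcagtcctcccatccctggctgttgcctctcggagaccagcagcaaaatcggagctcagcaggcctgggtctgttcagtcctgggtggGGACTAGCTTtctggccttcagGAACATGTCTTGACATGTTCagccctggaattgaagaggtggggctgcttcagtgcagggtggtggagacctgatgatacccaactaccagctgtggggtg
Ccng1: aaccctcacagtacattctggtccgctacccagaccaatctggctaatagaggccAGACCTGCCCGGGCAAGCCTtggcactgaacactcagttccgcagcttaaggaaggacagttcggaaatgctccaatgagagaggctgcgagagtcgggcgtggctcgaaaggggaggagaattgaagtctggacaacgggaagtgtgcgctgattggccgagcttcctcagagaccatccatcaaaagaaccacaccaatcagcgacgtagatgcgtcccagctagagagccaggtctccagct
Mdm2: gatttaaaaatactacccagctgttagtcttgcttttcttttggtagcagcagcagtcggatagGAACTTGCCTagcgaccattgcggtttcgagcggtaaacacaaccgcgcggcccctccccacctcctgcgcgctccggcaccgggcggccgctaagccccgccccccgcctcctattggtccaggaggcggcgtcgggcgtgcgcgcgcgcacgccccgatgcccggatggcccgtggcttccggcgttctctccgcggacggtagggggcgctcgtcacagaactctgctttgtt
Sesn2: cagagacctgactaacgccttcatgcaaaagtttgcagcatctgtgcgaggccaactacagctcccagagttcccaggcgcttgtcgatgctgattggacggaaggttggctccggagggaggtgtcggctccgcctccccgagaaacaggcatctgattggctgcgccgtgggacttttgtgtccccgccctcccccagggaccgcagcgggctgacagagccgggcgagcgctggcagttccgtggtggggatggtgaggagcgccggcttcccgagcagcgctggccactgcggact

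The Cdkn1a sequence is chr17:29090729-29091028 on the plus strand and surrounds the upstream start of 2 listed for the gene. Its 20-base element covers positions -51 to -32 relative to that start, and a further exact 10-base match lies at -73 to -64. The Ccng1 window is chr11:40755237-40755536 on the minus strand, with the 20-base element at -195 to -176. The window around the other Cdkn1a start, chr17:29093519-29093818, lies downstream of this element and holds no 10-base match. The best studied p53 elements of Mdm2 lie within the first intron, outside its window. The Mdm2 window, chr10:117710709-117711008 on the minus strand, holds a single 10-base match at -186 to -177. The Sesn2 window, chr4:132510407-132510706 on the minus strand, holds no match, which says only that these letters are not within this window. It also lacked TGATGNAA, the core of the composite element bound by ATF4 with C/EBP factors, found on either strand in 3.97% of all windows. Shorter stretches show the single matches in the other 3 genes: Bax at chr7:45467075-45467114 on the minus strand, Sesn1 at chr10:41887251-41887290 and Trp53 at chr11:69580269-69580308, both on the plus strand.
Bax: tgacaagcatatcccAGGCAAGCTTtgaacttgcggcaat
Sesn1: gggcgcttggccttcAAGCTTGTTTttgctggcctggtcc
Trp53: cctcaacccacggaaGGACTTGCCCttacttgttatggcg

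The values below are RMA intensities on a linear scale, given as group mean ± SD with n = 2, and log2 changes against control are given ± SE from a limma fit to all 6 arrays. A gene is said to have risen or fallen only where the Benjamini-Hochberg adjusted p over all 24569 genes was under 0.05. Under I-BET151, 2 of the 10 genes fell and none rose, while 0.887% of all genes fell and 0.269% rose. At an unadjusted limma p under 0.05, 5 of the 10 were lower and 2 higher under each inhibitor, where of all 24569 genes 2485 were lower and 2174 higher with I-BET151 and 2762 and 2568 with JQ1. JQ1 gave 2 falls and 1 rise among the 10, against 2.77% of all genes that fell and 1.18% that rose. For the mean of both inhibitors, again 2 fell and 1 rose (3.4% and 1.66% of all genes). The split over all genes depended on scaling: there were 66 rises and 218 falls with I-BET151 and 291 and 680 with JQ1, which became 225 and 371, and 713 and 777, when arrays were centred on their medians. The median log2 change of the 10 genes was -0.16 under I-BET151 and -0.15 under JQ1, against 0.00 and 0.02 over all genes. Both inhibitor groups were compared with the same 2 control arrays, so their changes are not independent of each other.

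**Figure D1:**
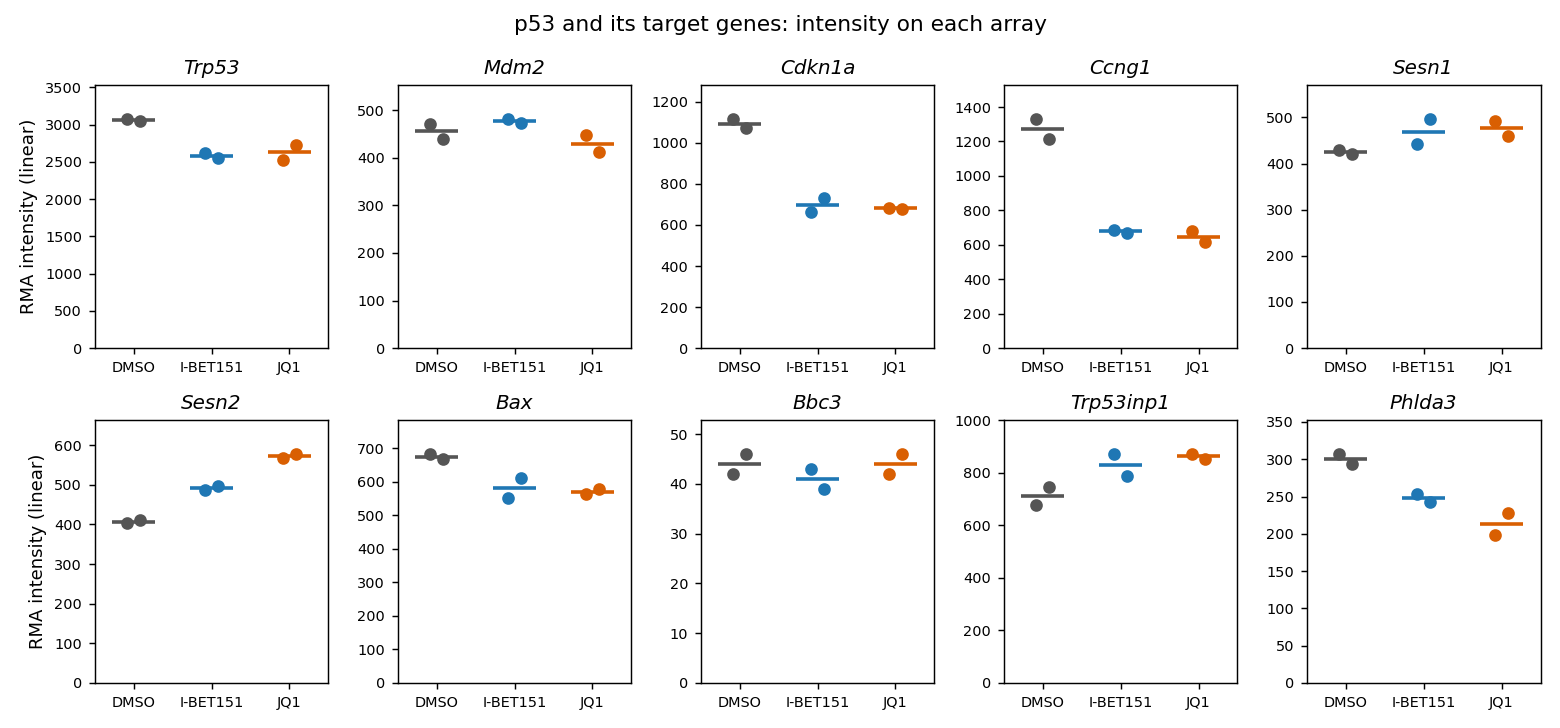
RMA intensity (linear scale, each panel starting at 0) of the 10 genes on each of the 6 arrays, in DMSO, I-BET151 (500 nM) and JQ1 (100 nM) buds; points are arrays and bars are the means of 2 arrays. Cdkn1a and Ccng1 lie at 616 to 733 on all 4 inhibitor arrays and at 1070 to 1329 on the control arrays, mean Sesn2 goes from 407.0 to 492.0 and 573.0, and the Mdm2 and Bbc3 arrays stay close together.

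Trp53 itself was a bright gene and stood slightly lower with either inhibitor. Its intensity was 3071 and 3045 with DMSO, 2620 and 2548 with I-BET151 and 2529 and 2731 with JQ1. All 4 inhibitor arrays lay below both controls. The log2 change was -0.24 ± 0.06 under I-BET151 (95% interval -0.41 to -0.07) and -0.22 ± 0.06 under JQ1 (-0.39 to -0.05), and neither passed (limma adjusted p = 0.158 and 0.149). For the mean of both inhibitors the adjusted p was 0.0937.

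Mdm2, the ubiquitin ligase that destroys p53 and one of its most responsive targets, did not follow Cdkn1a and Ccng1. The arrays read 472 and 439 with DMSO, 481 and 474 with I-BET151 and 447 and 413 with JQ1. The I-BET151 arrays were a little above the controls, and the JQ1 arrays overlapped with them. The log2 changes were 0.07 (95% interval -0.12 to 0.26, limma adjusted p = 0.669) and -0.08 (-0.27 to 0.11, adjusted p = 0.587), so a fall of the size seen for Cdkn1a lay outside both intervals. Its paralogue Mdm4, which binds p53 and blocks its activation domain, was at 442.5 ± 17.7 with DMSO, 535.0 ± 25.5 with I-BET151 and 455.5 ± 57.3 with JQ1, and was not called (adjusted p = 0.27 and 0.888).

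The growth arrest genes fell the most. Ccng1 encodes cyclin G1, which recruits the phosphatase PP2A to Mdm2 and so favours p53 turnover. It was at 1329 and 1213 with DMSO, 687 and 671 with I-BET151 and 679 and 616 with JQ1. The control and inhibitor arrays were far apart, and the I-BET151 and JQ1 arrays overlapped. Ccng1 fell 1.87-fold under I-BET151 (log2 change -0.90 ± 0.08, limma adjusted p = 0.0422) and 1.96-fold under JQ1 (-0.97 ± 0.08, adjusted p = 0.0167). Of the 24569 genes, 171 had a lower log2 change under I-BET151 and 240 under JQ1.

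Cdkn1a encodes p21, the inhibitor of cyclin-dependent kinases through which p53 halts the cell cycle. Its arrays read 1115 and 1070 with DMSO, 661 and 733 with I-BET151 and 683 and 680 with JQ1. It fell 1.57-fold under I-BET151 (log2 change -0.65 ± 0.07, limma adjusted p = 0.045) and 1.6-fold under JQ1 (-0.68 ± 0.07, adjusted p = 0.0238). Both inhibitor groups sat at nearly the same level, with a JQ1 minus I-BET151 difference of -0.03 (95% interval -0.22 to 0.16).

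The calls of Ccng1 and Cdkn1a ended whenever 1 array was left out. When each array was left out in turn, the log2 change of Ccng1 was -0.97 to -0.84 under I-BET151 and -1.04 to -0.90 under JQ1, and that of Cdkn1a -0.72 to -0.58 and -0.71 to -0.65. Without any 1 of the 6 arrays, replicate 1 or 2 of JQ1, I-BET151 or DMSO, limma called no gene of the whole table against control, the other genes named here included, although 3710 to 4566 genes under I-BET151 and 4351 to 5502 under JQ1 had an unadjusted p under 0.05. The adjusted p of Cdkn1a was then 0.147 to 0.244 under I-BET151 and 0.0718 to 0.165 under JQ1, and that of Ccng1 0.147 to 0.243 and 0.0821 to 0.157. When only genes brighter than the median were kept, both fell in all 6 fits under either inhibitor. Their adjusted p was then 0.0141 to 0.0384 (Cdkn1a) and 0.0079 to 0.0266 (Ccng1) under I-BET151, and 0.00439 to 0.0212 and 0.00336 to 0.00973 under JQ1.

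**Figure D2:**
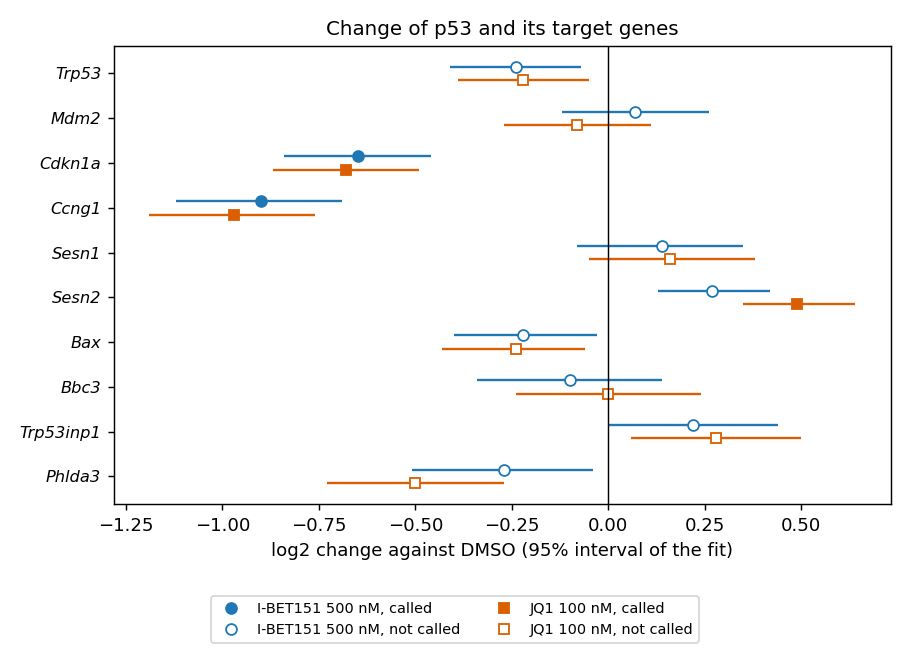
Log2 change against DMSO (horizontal axis) of the 10 genes under I-BET151 (circles) and JQ1 (squares), with the 95% interval of the limma fit to 6 arrays; filled symbols passed an adjusted p of 0.05. Cdkn1a and Ccng1 lie at -0.65 to -0.97, Sesn2 at 0.27 and 0.49, and the remaining genes between -0.50 and 0.28.

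The bud is a mixed tissue, and in such bulk samples fewer cells of a type and less RNA per cell cannot be told apart. Of 9 markers of the pancreatic epithelium, including Pdx1, Ptf1a, Sox9 and Cpa1, none was at the lowest value and none was called by limma (1 lower at an unadjusted p under 0.05 with each inhibitor); their summed intensity was 13153 and 13477 with DMSO, 13352 and 12905 with I-BET151 and 11923 and 13003 with JQ1. All 8 endothelial markers were lower with each inhibitor, and 2 fell under I-BET151 and 5 under JQ1, where 0.887% and 2.77% of all genes fell. Their sum went from 5737 and 5849 to 4125 and 4423, and to 3874 and 3953. The 10 mesenchyme markers summed to 14121 and 14592, 12320 and 11942, and 11882 and 11752, with 2 and 4 falls. The 8 neural markers summed to 2239 and 2249, 1107 and 1332, and 1124 and 1153, with 2 and 3 falls. Such sums follow the brightest markers, as Gcg (epithelium, DMSO mean 5486.0) and Vim (mesenchyme, 7075.5). Median log2 changes under I-BET151 and JQ1 were 0.01 and -0.01 for epithelium and -0.34 and -0.51 for endothelium. They were -0.46 and -0.52 for mesenchyme and -0.52 and -0.39 for neural markers. No endothelial, mesenchyme or neural marker was at the lowest value of 5. The part of these cell types in the falls of Cdkn1a and Ccng1 was not tested.

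In these lists the lowest log2 changes under I-BET151 and JQ1 were those of Tek (-1.38 and -1.53), Postn (-1.94 and -2.25) and Fabp7 (-1.72 and -2.27, called under JQ1 alone). The highest were those of Col3a1 (0.02 and -0.09), of Tie1 under I-BET151 (-0.21), and of Cldn5 (-0.17) and Sox10 (-0.08) under JQ1. Among 7 macrophage markers Cd68 fell under JQ1, and the changes ran from Aif1 (-0.49 and -0.58) to Csf1r (0.43 and 0.24). Of 8 erythroid markers none was called by limma (3 lower under I-BET151 and 0 under JQ1 at an unadjusted p under 0.05). Macrophage sums were 2325 and 2574, 2531 and 2335, and 2100 and 2227, and erythroid sums 9060 and 9779, 8676 and 9060, and 9322 and 9338. Of the erythroid markers, Hbb-y alone had a DMSO mean of 6454.0. Median log2 changes were -0.16 and -0.29 for the macrophage list and -0.25 and -0.06 for the erythroid list. Of 8 liver markers none was called by limma (2 lower with each inhibitor at an unadjusted p under 0.05); their sum was 5466 and 5189, 3148 and 4769, and 3170 and 5166. Within that list Alb differed between replicates, at 179 and 58 with DMSO, 35 and 421 with I-BET151 and 43 and 753 with JQ1. Serpina1b, Fgb and Trf lay below both controls on all 4 inhibitor arrays, with log2 changes of -1.27 and -1.39, -1.52 and -1.49, and -0.65 and -0.61. For the other liver markers the inhibitor arrays overlapped the controls. Their log2 changes were 0.25 and 0.82 (Alb), -0.90 and -0.74 (Afp), 0.04 and 0.35 (Apoa1), -0.09 and -0.10 (Ttr), and 0.69 and 0.73 (Ahsg). The median of the 8 liver markers was -0.37 and -0.35. The part of liver RNA in the falls of Cdkn1a and Ccng1 was not tested. Hexim1, a usual marker of BET inhibition, rose from 640.5 ± 21.9 to 1017.5 ± 50.2 with I-BET151 and 1283.5 ± 29.0 with JQ1 (limma adjusted p = 0.0422 and 0.0138).

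Of the sestrins, Sesn2 rose under JQ1 and Sesn1 was not called. Sestrins restrain the growth kinase complex mTORC1 when amino acids are short, and Sesn2 is induced by ATF4 as well as by p53. Sesn2 read 403 and 411 with DMSO, 487 and 497 with I-BET151 and 568 and 578 with JQ1. The 3 groups were separated without overlap, in steps larger than the gap between replicates. Sesn2 rose 1.41-fold under JQ1 (log2 change 0.49 ± 0.05, limma adjusted p = 0.0245) and stood 1.21-fold higher, without passing, under I-BET151 (0.27 ± 0.05, adjusted p = 0.103), where it passed with genes below the median intensity left out (adjusted p = 0.0447). The JQ1 call ended without any 1 of the 6 arrays (adjusted p = 0.076 to 0.158) and was made in all 6 such fits with dim genes also left out (0.00983 to 0.0329).

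Sesn1 was at 430 and 421 with DMSO, 442 and 496 with I-BET151 and 493 and 460 with JQ1. All 4 inhibitor arrays were above both controls, by amounts close to the gap between replicates, and the log2 changes of 0.14 and 0.16 were not called (limma adjusted p = 0.447 and 0.346). Sesn3, the family member controlled by FoxO factors and not by p53, was at 1659.5 ± 20.5 with DMSO, 2029.0 ± 45.3 with I-BET151 and 2085.0 ± 49.5 with JQ1. It was not called under either inhibitor alone (adjusted p = 0.103 and 0.0549) and rose for the mean of both (log2 change 0.31 ± 0.05, adjusted p = 0.0434).

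Because Sesn2 also answers to ATF4, 10 other genes of the ATF4 response were read on the same arrays. None rose, and 2 fell under JQ1, where 1.18% of all genes rose and 2.77% fell. Under I-BET151 none was called in either direction. At an unadjusted limma p under 0.05, 3 were lower with I-BET151, against 2485 of all 24569 genes. Nupr1, a stress-induced chromatin protein gene, went from 308.5 ± 9.19 to 128.5 ± 31.8 under I-BET151 and 84.5 ± 12 under JQ1, a 3.67-fold fall under JQ1 (adjusted p = 0.0235). Slc7a11, the cystine transporter gene, was dim, at 11 to 23 on all arrays against array medians of 54 to 57. It went from 22.0 ± 1.41 with DMSO to 13.5 ± 2.12 with I-BET151 (log2 change -0.71, limma adjusted p = 0.0851). On both JQ1 arrays it read 11 (adjusted p = 0.0307). The median log2 change of the list was -0.16 under I-BET151 and -0.13 under JQ1. Under JQ1, 4 of the 10 were lower and 1 higher at an unadjusted limma p under 0.05, against 2762 and 2568 of all 24569 genes. The one that was higher is Ddit3, which encodes the stress factor CHOP, at 115 and 84 with DMSO, 113 and 135 with I-BET151 and 142 and 134 with JQ1 (log2 change 0.49 under JQ1, adjusted p = 0.214). Atf3 had log2 changes of 0.18 and 0.17, and Atf4, Asns, Trib3, Chac1, Psat1 and Ddit4 of -0.05 to -0.45, none called. The part of ATF4 in the rise of Sesn2 was not tested.

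None of the 4 genes of cell death and survival was called. Bax forms pores in the outer mitochondrial membrane. It read 683 and 668 with DMSO, 553 and 612 with I-BET151 and 563 and 578 with JQ1. Every inhibitor array was below both controls, with log2 changes of -0.22 ± 0.07 and -0.24 ± 0.07 (limma adjusted p = 0.219 and 0.149).

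Bbc3, which encodes the BH3-only protein PUMA and is a strong p53 target in apoptosis, was dim, below the median gene. Its arrays read 42 and 46 with DMSO, 43 and 39 with I-BET151 and 42 and 46 with JQ1. The JQ1 arrays equalled the controls and 1 of the 2 I-BET151 arrays lay below them, the log2 changes were -0.10 and 0.00 (limma adjusted p = 0.611 and 1.0), and the 95% intervals reached from -0.34 to 0.14 and from -0.24 to 0.24.

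Trp53inp1 encodes a stress protein that promotes autophagy and p53-dependent death. It was higher with inhibitor, at 676 and 744 with DMSO, 871 and 786 with I-BET151 and 871 and 853 with JQ1. No inhibitor array reached down to the controls, but the controls were themselves well apart, and the log2 changes of 0.22 ± 0.08 and 0.28 ± 0.08 were not called (limma adjusted p = 0.26 and 0.153).

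Phlda3, whose product competes with the survival kinase Akt for membrane lipids, had the third lowest change of the 10. It read 307 and 293 with DMSO, 253 and 243 with I-BET151 and 198 and 228 with JQ1. The 3 groups did not overlap, and the log2 change was -0.27 ± 0.09 under I-BET151 and -0.50 ± 0.09 under JQ1 (limma adjusted p = 0.207 and 0.058). Under JQ1 it passed where genes below the median intensity were left out (adjusted p = 0.0111), and with an intensity trend or a robust prior (0.0415 and 0.0433).

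In 9 of the 10 genes the I-BET151 arrays were either both above (4 genes) or both below (5 genes) the control arrays, as in 42.3% of all genes. For JQ1 it was 8 of 10, 3 above and 5 below, against 45.1% of all genes. Exceptions were Bbc3 in both groups and Mdm2 under JQ1. With 2 arrays against 2, an exact two-sided permutation test of a single gene cannot give a p below 0.333.

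I-BET151 and JQ1 were given at different doses, so their values stand side by side and the contrast between them compares the 2 treatments as given. Neither the 10 genes nor any other gene passed the test between them (0% of 24569 genes called by limma, and 1650 at an unadjusted p under 0.05). The largest gaps were those of Phlda3 and Sesn2. Sesn2 was higher under JQ1 by 0.22 (95% interval 0.08 to 0.36, unadjusted p = 0.0108, adjusted p = 0.716), and Phlda3 was lower by 0.22 (JQ1 minus I-BET151 -0.22, -0.45 to 0.01, adjusted p = 0.744). For Ccng1 the interval was -0.28 to 0.14.

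The paralogues of these genes were measured beside them. Cdkn1b and Cdkn1c encode p27 and p57, the other members of the p21 family. Cdkn1b was at 293.5 ± 2.12 with DMSO, 290.5 ± 4.95 with I-BET151 and 285.5 ± 2.12 with JQ1, and Cdkn1c at 1285.0 ± 63.6, 1395.5 ± 29.0 and 1443.5 ± 26.2. Neither was called, and their log2 changes lay between -0.04 and 0.17. Ccng2, the FoxO-responsive relative of Ccng1, was at 554.0 ± 19.8, 625.0 ± 18.4 and 603.5 ± 7.78 and was not called (limma adjusted p = 0.232 and 0.333). The fall of p21 and cyclin G1 transcripts was thus not accompanied by called falls of their closest relatives; the difference between relatives was not tested.

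Among relatives of the death genes, Bak1, the partner of Bax in pore formation, read 357 and 316 with DMSO, 245 and 232 with I-BET151 and 186 and 192 with JQ1. It fell 1.78-fold under JQ1 (log2 change -0.83 ± 0.08, limma adjusted p = 0.021) and was lower, not called, under I-BET151 (-0.49 ± 0.08, adjusted p = 0.0809). Bok, the third pore former, had log2 changes of -0.24 and -0.27 and was not called. Of 14 further genes of the Bcl-2 family, Bak1 and Bok included, none was called under I-BET151 (3 lower and 1 higher at an unadjusted limma p under 0.05), and Bak1 was the single call under JQ1. Under JQ1 4 were lower and 2 higher at that unadjusted p. Of all 24569 genes, 2485 were lower and 2174 higher under I-BET151, and 2762 and 2568 under JQ1, where 2.77% were called as falls. The survival genes Bcl2, Bcl2l1 and Mcl1 had log2 changes between -0.14 and 0.13.

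The remaining relatives were mixed. Phlda2, an imprinted gene, was dim at 31 and 33 with DMSO, 23 and 26 with I-BET151 and 22 and 23 with JQ1, and fell for the mean of both inhibitors (log2 change -0.45 ± 0.07, limma adjusted p = 0.0463). Phlda1 had log2 changes of 0.06 and 0.21, and Trp53inp2 of 0.32 and 0.42, none called. Trp63 was dim and spread widely, at 29 and 27 with DMSO, 35 and 42 with I-BET151 and 36 and 50 with JQ1, and Trp73 lay at 24 to 28 on all arrays; neither was called. In all, 12 paralogues were measured, with medians of 0.09 and 0.10, 1 fall under JQ1 and no call by limma under I-BET151 (2 lower and 3 higher at an unadjusted p under 0.05). Under JQ1 3 were lower and 4 higher at that unadjusted p. Of all 24569 genes, 2485 were lower and 2174 higher under I-BET151, and 2762 and 2568 under JQ1, where 2.77% were called as falls.

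**Figure D3:**
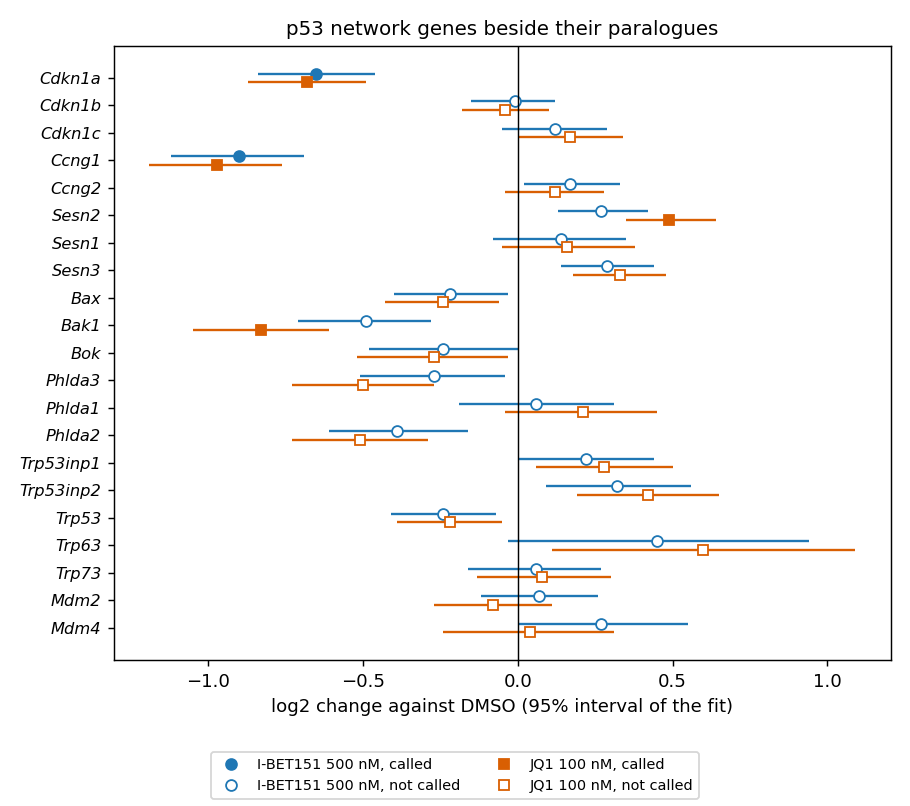
Log2 change against DMSO (horizontal axis, 95% interval of the limma fit to 6 arrays) of the p53 network genes beside their paralogues, under I-BET151 (circles) and JQ1 (squares); filled symbols passed an adjusted p of 0.05. Cdkn1b, Cdkn1c and Ccng2 lie at -0.04 to 0.17 beside Cdkn1a and Ccng1, all 3 sestrins lie above 0, and Bax, Bak1 and Bok all lie below 0.

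Few of a further 38 known p53 targets were called. Under I-BET151 none was called by limma (4 higher and 11 lower at an unadjusted p under 0.05). Under JQ1 1 rose and 1 fell, and for the mean of both inhibitors 1 rose and 2 fell. Of all genes, 1.18% rose and 2.77% fell under JQ1, and 1.66% and 3.4% for the mean. By that measure 1 call each way among 38 under JQ1 is near the background. At an unadjusted limma p under 0.05, 5 of the 38 were higher and 12 lower under JQ1. Of all 24569 genes, 2568 were higher and 2762 lower under JQ1, and 2174 and 2485 under I-BET151. Both JQ1 arrays lay on 1 side of both controls in 26 of the 38 (9 above, 17 below), against 45.1% of all genes. For I-BET151 it was 24 of the 38 (7 above, 17 below), against 42.3%. The median log2 change was -0.08 under I-BET151 and -0.03 under JQ1, with 15 and 18 of the 38 above 0. Counts were sensitive to dim genes: with genes below the median intensity left out, Dram1 among them, the 31 remaining targets had 1 rise and 4 falls with I-BET151, and 3 rises and 5 falls with JQ1. The same fit called 632 rises and 872 falls of 12285 genes with I-BET151, and 1082 and 1366 with JQ1.

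Among these, Dram1 encodes a lysosomal membrane protein that promotes autophagy. It was at 68 and 69 with DMSO, 52 and 53 with I-BET151 and 46 and 45 with JQ1, and fell 1.51-fold under JQ1 (limma adjusted p = 0.019; 0.0618 under I-BET151). Ak1, an adenylate kinase gene, read 243 and 227 with DMSO, 123 and 112 with I-BET151 and 153 and 123 with JQ1. It lay just outside the threshold under each inhibitor (adjusted p = 0.0529 and 0.0502) and fell for the mean of both (log2 change -0.89 ± 0.11, adjusted p = 0.0277).

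Xpc, which recognises damaged bases for nucleotide excision repair, went the other way. It read 216 and 200 with DMSO, 252 and 270 with I-BET151 and 279 and 290 with JQ1, and rose 1.37-fold under JQ1 at the edge of the threshold (limma adjusted p = 0.0494; 0.124 under I-BET151). That call was not made when rows were named by the platform annotation alone.

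**Figure D4:**
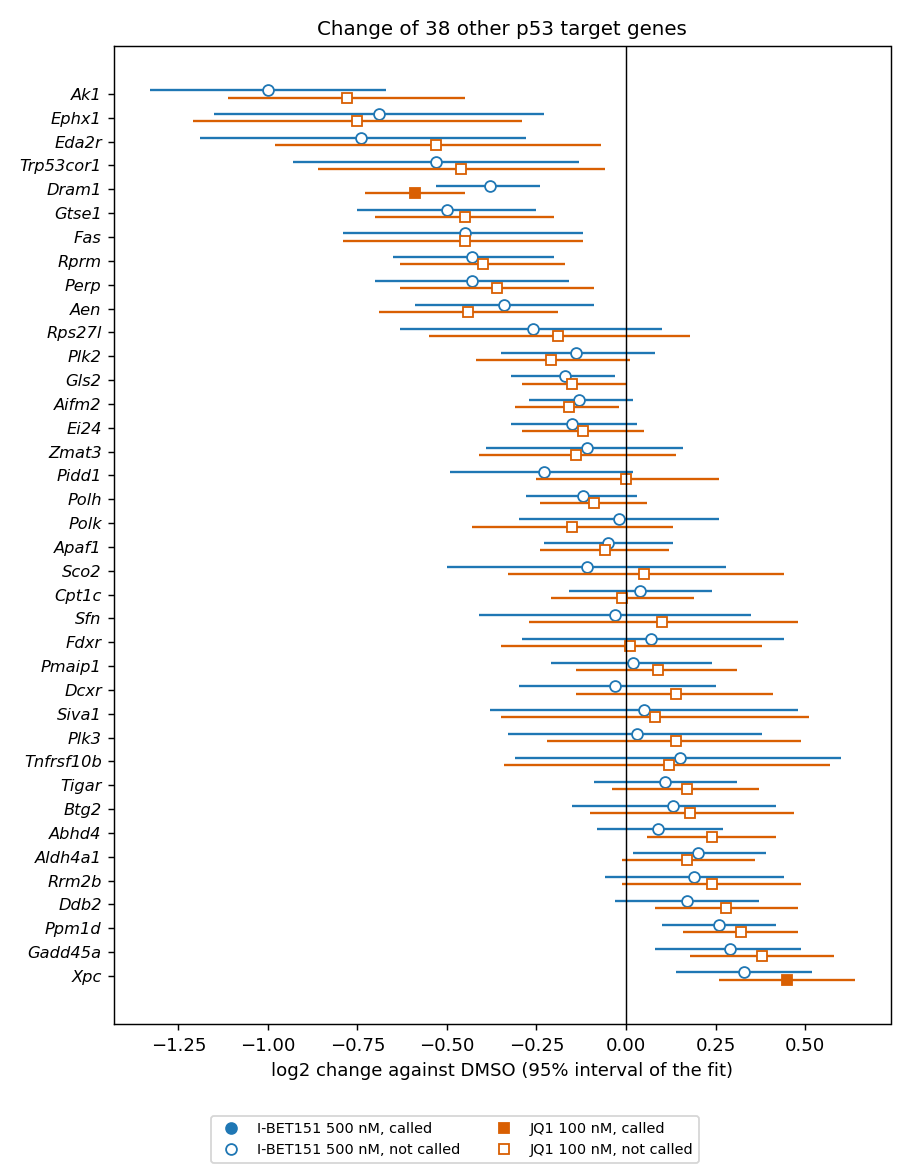
Log2 change against DMSO (horizontal axis, 95% interval of the limma fit to 6 arrays) of 38 other p53 target genes under I-BET151 (circles) and JQ1 (squares), ordered by the mean of both; filled symbols passed an adjusted p of 0.05. The list spreads to both sides of 0, from Ak1 at -1.0 and -0.78 to Xpc at 0.33 and 0.45, with Dram1 and Xpc filled under JQ1.

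Of 17 measured regulators of p53, including the damage kinases Atm, Atr, Chek1 and Chek2, none was called under either inhibitor, and at an unadjusted limma p under 0.05 each inhibitor had 1 higher and 0 lower. Their log2 changes lay between -0.20 and 0.27 under I-BET151 and between -0.13 and 0.40 under JQ1. The median was 0.05 and 0.04. Of all 24569 genes, 2174 were higher and 2485 lower at an unadjusted limma p under 0.05 with I-BET151, and 2568 and 2762 with JQ1.

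The 20-base p53 element gave a further list, the genes with that element in a window. Like the other lists it was made with earlier results of these data known, so its counts are no independent support. Of the 22 genes with such a window, 12 had a row. Cdkn1a and Ccng1 fell under both inhibitors, and of the other 10 none was called. At an unadjusted limma p under 0.05 there were 4 under I-BET151 and 5 under JQ1, against 4659 and 5330 of all 24569 genes. Calhm2, Gtse1 and Mthfd1 were lower under both, Olfr1062 was higher under both, and Cldn16 was higher under JQ1. The medians were -0.08 and -0.01, with 5 genes below 0 and 5 above under each inhibitor. Olfr1062, Olfr1057, Sptbn4, 1600002D24Rik, Cldn16 and Gm15987 were dim, at 8 to 27 on all arrays, against array medians of 54 to 57. The rest, Calhm2, Gtse1, Mthfd1 and Rps27l, lay below both controls on every inhibitor array. The cell cycle gene Gtse1, one of these and a p53 target of the list above, was at 330.5 ± 9.19 with DMSO, 234.5 ± 27.6 with I-BET151 and 242.0 ± 2.83 with JQ1 (adjusted p = 0.0988 and 0.0806). The ribosomal protein gene Rps27l, another target, had log2 changes of -0.26 and -0.19.

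The genes whose levels followed Cdkn1a most closely over the 6 arrays, among 12284 genes brighter than the median, were Timp1, Anxa4 and Cldn3, with Pearson r of 0.9991, 0.9984 and 0.9983 on the log2 scale. They encode a metalloproteinase inhibitor, an annexin and a tight junction claudin, and all 3 fell under both inhibitors. For Ccng1 they were the oligoribonuclease gene Rexo2, the sterol transporter gene Abcg4 and the peptide receptor gene Calcrl (r of 0.9996, 0.9994 and 0.9969), of which Calcrl fell under JQ1 and was not called under I-BET151. The 6 arrays form 3 groups, so any gene with a clean step between control and inhibitor correlates highly: 151 genes exceeded 0.98 with Cdkn1a and 122 with Ccng1.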

How the data were processed

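RNA of 6 pools of buds was amplified, labelled with biotin and hybridised to Affymetrix whole-transcript arrays, per the labels' protocols. The deposited values are intensities, made by the authors with RMA, as the submitters' processing notes name it without a version, per the labels; they are whole numbers on a linear scale from 5 to 11028, with array medians of 54 to 57. The summary of probes per gene and the build were not given in the sources used here. Since RMA equalises the arrays, a change shared by most genes would not be seen, and 2 arrays per group limit the precision. Arrays have no count depth.

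Of 24972 rows, 24014 had 1 symbol in the platform annotation, none several, and 958 none. Row identifiers equalled the Entrez gene ID in all 24014 listed rows, so 559 further rows, Trp53 and Bax among them, were named by gene ID in the RefSeq table of GRCm38.p6, and 399 stayed unnamed. For 4 symbols with more than 1 row the brightest was kept, leaving 24569 genes. Log2(intensity), with no pseudocount or filter, was fitted with limma 3.58.1 in R 4.3.3 (lmFit, eBayes) to 3 groups at once; residual degrees of freedom were 3, and the prior added 1.76. Intervals are 95% intervals of that fit. In 10 simulated draws with 200 of 24569 genes changed, drawn from genes above the median, 53% of changes of 1 on the log2 scale and 12.2% of changes of 0.5 were found for I-BET151 (54.5% and 11.9% for JQ1), with 2.8 and 3 false calls per draw. In the data 4659 genes under I-BET151 and 5330 under JQ1 had an unadjusted limma p under 0.05. The adjusted threshold depends on how many genes change, so these shares need not hold for the data.

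The genes and the lists were chosen with earlier results of these data known, so no list count is independent support. Named were the 10 genes, Hexim1, all measured paralogues, called members of the lists other than markers (at most 8 each by p), the markers with the highest and lowest change in lists with calls (1 is not reported here), and the 3 genes most correlated with Cdkn1a and Ccng1. Other genes given with values were chosen after their values were seen. Alternatives were a replicate block, arrays centred on the median, dim genes left out, another variance prior and leaving out each array; naming by the platform annotation alone was added after seeing the data.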

Additional observations from a re-analysis of the deposited data

How the results depend on the processing

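Of the 684 combinations of a gene, a contrast and an alternative, 591 kept direction and side of the threshold, 56 lost the call, 18 gained it and 19 changed sign, none of the latter called. With the replicate block, all counts against control were 0: 2 and 3 of the 10 genes under I-BET151 and JQ1, 3 for the mean of both, and 2 and 3 of the other 38 targets under JQ1 and the mean were lost (adjusted p 0.128 and 0.0611 for Ccng1, 0.136 and 0.0805 for Cdkn1a, and 0.0781 for Sesn2 under JQ1). The block uses 1 of 3 residual degrees of freedom. Deviations from the group means correlated at -0.0158 to -0.0406 between groups over all genes, which cannot exclude that the replicate numbers pair the samples. Alb and Afp were higher in replicate 2 of both inhibitor groups and lower in replicate 2 of DMSO. Leaving out each array in turn, the lone array being assumed to vary like the other groups, gave 0 calls in each of these counts. With dim genes also left out, the 10 genes gave 2 calls under I-BET151, 3 to 4 under JQ1 and 3 to 6 for the mean, and the other targets 1 to 4, 2 to 8 and 3 to 9; the highest counts came without I-BET151 replicate 2 (6 and 9 for the mean). With dim genes left out of all 6 arrays, 5 of the 10 genes were called for the mean, Trp53 and Phlda3 joining, and 5, 8 and 8 of the other targets under I-BET151, JQ1 and the mean. An intensity trend gave 5 for the mean, and 1, 4 and 6 of the other targets; centred arrays gave 1, 4 and 7; a robust prior gave 1 under I-BET151 and 6 for the mean. Naming by the platform annotation alone left 1 other target under JQ1, without Xpc; the cause was not tested. Over all genes, 284 and 971 calls under I-BET151 and JQ1 became 596 and 1490 with centred arrays, 1504 and 2448 of 12285 with dim genes left out, 465 and 1443 with a trend, and 575 and 1307 with a robust prior.

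Sign changes occurred in uncalled values near 0. For the mean of both inhibitors, Mdm2 was 0.06 and Bbc3 0.01 with centred arrays, and without 1 array they lay at -0.06 to 0.05 (0.02 without JQ1 replicate 2) and -0.12 to 0.01. For JQ1 minus I-BET151, leaving out 1 array gave -0.03 to 0.08 for Trp53, -0.11 to 0.04 for Cdkn1a, -0.06 to 0.11 for Sesn1 (-0.03 without JQ1 replicate 1), -0.1 to 0.04 for Bax and -0.02 to 0.13 for Trp53inp1, the same with dim genes left out. Centring moved the median change of all genes by under 0.1.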
